A study of Arabidopsis thaliana with 8 samples.

Results

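The mitochondrial genome contributed 152 of the 37329 genes in the deposited mRNA tables of Arabidopsis endosperm, and all 152 genes with an ATMG identifier are described here. The endosperm is the nutritive tissue of the seed that forms beside the embryo after fertilization. It was dissected 7 days after pollination from F1 seeds of crosses between Ler females and Col-0 males. The groups differed in NRPD1, the gene of the catalytic subunit of the plant RNA polymerase IV (Pol IV), which transcribes the precursors of small RNAs. WT seeds came from a Ler female and a Col-0 male (2 libraries in the sample list). Seeds called mat nrpd1+/- came from a Ler nrpd1-/- female and a Col-0 male (3 libraries), and nrpd1-/- seeds had a Ler nrpd1-/- female and a Col-0 nrpd1-/- male (3 libraries). The mutant allele in both accessions was nrpd1a-4, an insertion allele of Col-0 that had been introgressed into Ler, and residual Col-0 regions remained in the Ler mutant. Each library pooled seeds from several siliques, and the question of the study was what each parent's NRPD1 does to transcript abundance.

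The plant mitochondrial genome encodes a small part of the organelle's proteins. These are subunits of complexes I (nad genes), III (cob), IV (cox genes) and V (atp genes) of the respiratory chain, proteins that attach heme to cytochromes (ccm genes), some ribosomal proteins (rps and rpl genes), ribosomal RNAs (rrn genes), transfer RNAs (trn genes) and many open reading frames of unknown function (orf). The other subunits of the same complexes are encoded in the nucleus. Arabidopsis mitochondria are inherited through the mother, and every seed compared here had a mother labelled Ler. Which cytoplasm the Ler nrpd1 line carried is not given in the sources used here. Most plant mitochondrial mRNAs do not keep a poly(A) tail, and in this organelle a poly(A) tail marks RNA for decay. The libraries were made from polyadenylated RNA, so the values describe the part of mitochondrial RNA that such a library holds.

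Each of the 3 tables sets WT beside a mutant genotype and holds 1 FPKM value (read fragments scaled to transcript length and to the number of mapped fragments) for each genotype, made from its libraries together. Without values per library there was no replicate error, and no test was run. Differences are given as log2((mutant FPKM + 1)/(WT FPKM + 1)) for genes whose mean FPKM over both genotypes was at least 1, and a difference of 2-fold on that scale was called. The table that compares mat nrpd1+/- with WT is called the mat table, and the one that compares nrpd1-/- with WT is called the null table. Read depth per library was not used here. NRPD1 itself was at 2.28 FPKM in WT and 2.08 FPKM in mat nrpd1+/- in the mat table, and at 4.34 FPKM in WT and 2.08 FPKM in nrpd1-/- in the null table, so transcript over the gene was still counted in both mutants.

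By matching the span and spacing of the deposited loci to the RefSeq annotation of the mitochondrial genome in TAIR10.1, the 152 genes were divided into 13 complex I genes, 1 complex III gene, 3 complex IV genes and 6 complex V genes. A further 5 encoded cytochrome c maturation proteins, 7 ribosomal proteins, 3 ribosomal RNAs, and 73 were open reading frames. The 22 members of the transfer RNA class were 19 genes and 3 copies of trnF that RefSeq annotates as pseudogenes. A single gene, mttB, encodes a membrane transport protein, and 12 matched no name. The last 6 lay in loci that hold genes of different classes and could not be given a class of their own. The genes nad3 and nad2 at ATMG01320 also share loci with open reading frames, but there each gene was given its own class. The trans-spliced nad1, nad2 and nad5 each occupy more than 1 identifier. Cuffdiff placed 23 genes in a locus together with another of the 152, where reads can be divided between neighbours, among them the pair of the ribosomal protein genes rps3 and rpl16, which cannot be told apart here by identifier.

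The first feature of the members was that 89 of the 152 were listed at exactly 0 in the WT and mutant columns of both tables, and 63 had a value above 0 in at least 1 of these 4 columns. Among the genes listed at 0 throughout were cob, the cytochrome b gene of complex III, atp8 and atp9 of the ATP synthase, nad6 and nad4 of complex I, the ribosomal protein genes rpl5, rps4, rps7 and rps12, and ccmC and ccmFC. Genes of these complexes are in constant use, so a 0 here is not read as absence of transcript. The nuclear genome of Arabidopsis holds a large insertion of mitochondrial DNA in chromosome 2, and the members differed in how much of their sequence it copies. Every 40-base word of each gene was therefore looked up in the RefSeq sequence of the nuclear, chloroplast and mitochondrial genomes.

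Stretches of 60 bases, printed 5′ to 3′ on the coding strand from RefSeq TAIR10.1, show both situations. Capitals mark a base at which the mitochondrial gene and its nuclear copy differ.
cob, mitochondrion, MT:182799-182858, minus strand: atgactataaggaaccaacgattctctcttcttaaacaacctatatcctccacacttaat
cob, nuclear copy, chr2:3450863-3450922, plus strand: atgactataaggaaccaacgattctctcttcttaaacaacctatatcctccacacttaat
ccmFN1, mitochondrion, MT:316036-316095, plus strand: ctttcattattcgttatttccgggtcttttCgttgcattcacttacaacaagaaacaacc
ccmFN1, nuclear copy, chr2:3297913-3297972, plus strand: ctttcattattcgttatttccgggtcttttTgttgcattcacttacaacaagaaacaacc
cox1, mitochondrion, MT:116286-116345, minus strand: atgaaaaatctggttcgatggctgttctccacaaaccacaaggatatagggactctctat
The cob gene (1182 bases) matched chromosome 2 from base 3450863 to base 3452044 with 0 mismatches, and atp1 (1524 bases) and ccmC (771 bases) also matched chromosome 2 with 0 mismatches. The ccmFN1 gene (1149 bases) differed from its chromosome 2 copy at 1 base, shown above. No 40-base word of cox1, atp4 or ccmB occurred in the nuclear genome.

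The listed values followed this difference. Of the 88 members with no 40-base word of their own, 80 were listed at 0 in all 4 columns, and the highest value of any of the 88 in WT of the null table was 0.377 FPKM. Of the 36 members with at least 50% of their words found nowhere else, 33 had a value above 0, and 31 had at least 1 FPKM in WT of the null table, where their median was 10.9 FPKM. The 3 exceptions were the pair orf315 and orf131, which share a locus and had 79.1% of their words to themselves, and ATMG09960, a gene of 83 bases with no name here. Between these groups lay ccmFN1 with 3.60% unique words at 5.47 FPKM in WT of the null table, and nad5 at ATMG00513 with 3.58% at 27.0 FPKM. The share of unique words was taken from the RefSeq genome, and the way reads with several places to align were counted is not given in the sources used here, so its part in the zeros was not tested. Comparisons below therefore concern the members that the tables measure, which are mainly those without a nuclear copy.

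**Figure D1:**
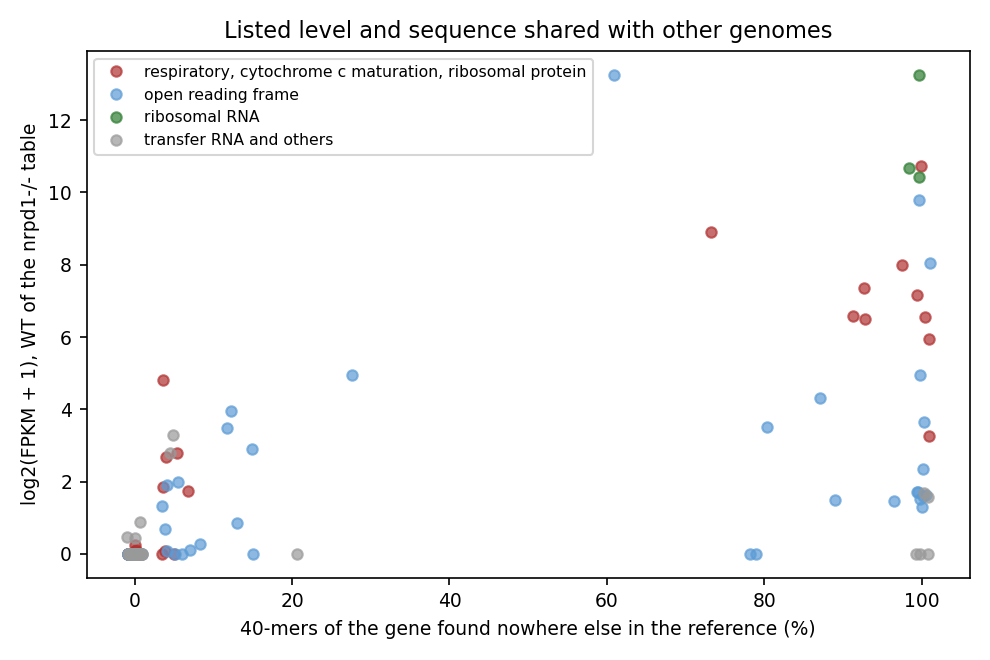
Share of each gene's 40-base words found nowhere else in the reference (x axis, %, points spread sideways by up to 1% to separate them) against log2(FPKM + 1) in WT of the null table (y axis). Each point is 1 of 151 mitochondrial genes long enough for the count. The 88 genes with no unique word sit at or just above 0, and 31 of the 36 genes with at least 50% unique words reached 1 FPKM.

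In the mat table, mitochondrial transcripts were higher in mat nrpd1+/- than in WT. WT had 12 members at 1 FPKM or more and mat nrpd1+/- had 28. Of the 23 members that passed the filter in this comparison, 21 were past 2-fold higher in mat nrpd1+/- and 0 were past 2-fold lower, where 10.7% of all 14161 genes that passed were called higher and 14.1% lower. Their median log2 ratio was 2.11, against -0.07 over all genes. For 12 of the 23, WT was below 1 FPKM, so that they passed the filter only through the mutant value and had to differ. The other 11 had at least 1 FPKM in WT, all 11 were above WT, and 9 were past 2-fold. Without any filter, 54 of 55 members with a value in either column were higher in mat nrpd1+/-, and the single exception was ATMG00720, a gene with no name here, with 0.29 FPKM in WT and 0.09 FPKM in mat nrpd1+/-.

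In the null table the direction was the opposite. Of the 44 members that passed the filter, 28 were past 2-fold lower in nrpd1-/- than in WT, where 7.47% of all 13661 genes that passed were called lower. The single member past 2-fold higher was the transfer RNA gene trnH, where 8.52% of all genes were called higher. The median log2 ratio of the 44 was -1.13, against -0.01 over all genes. The nrpd1-/- value was under 1 FPKM for 9 of the 44. Of the 35 others, 34 were below WT and 23 of them past 2-fold lower. Without a filter, 51 of 60 members were lower in nrpd1-/- and 9 were higher. There were 22 members that passed in both comparisons, and 21 of these, or 95.5%, were above WT in mat nrpd1+/- and below WT in nrpd1-/-, where 18.6% of the 13233 genes that passed in both were. The exception was trnH, which was listed at 0 in WT of both tables and so had to be above WT in both. Past 2-fold in each of these directions were 16 of the 22 members, and 0.597% of all genes. All 11 members that passed the filter in the mat table with at least 1 FPKM in its WT column were among the 21. The rest of the 22 were below 1 FPKM there. They passed in that comparison only through the mutant value and had to be above WT in mat nrpd1+/-. The counts of 21 and 16 both include such members.

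**Figure D2:**
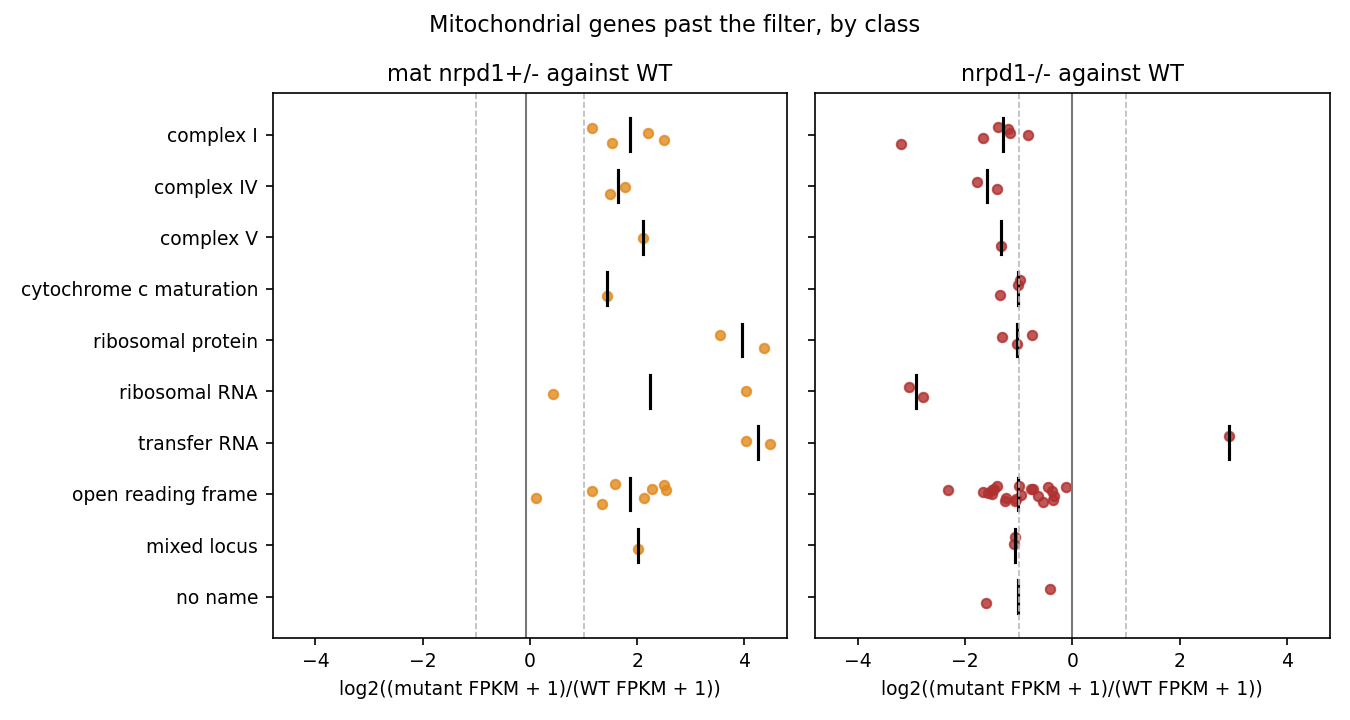
Log2 ratio of mutant over WT on FPKM + 1 (x axis) for each mitochondrial gene that passed the filter, by class (y axis, points spread vertically to separate them), in mat nrpd1+/- (left, 23 genes) and nrpd1-/- (right, 44 genes). Black bars are class medians, dashed lines mark 2-fold and the grey line is the median of all genes. Points lie right of the grey line on the left and, but for trnH, left of it on the right.

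Among the respiratory genes, 7 of 23 passed the filter in the mat table, with a median log2 ratio of 1.77. All 7 were past 2-fold higher in mat nrpd1+/-, where 10.7% of all genes were called higher. For nad5, nad9 and cox2 among these, WT was below 1 FPKM, so that they had to be higher. Of the respiratory genes, 9 passed in the null table, with a median log2 ratio of -1.38. Past 2-fold lower were 8 of the 9 and higher 0, where 7.47% of all genes were called lower and 8.52% higher. For nad7 among these, nrpd1-/- was below 1 FPKM, so that it passed only through WT and had to be lower. Complex I is the NADH dehydrogenase that takes electrons into the chain, and its genes were the best represented. The gene nad1, whose exons at ATMG01120 span bases 287917 to 289083 of the mitochondrial genome in the files' TAIR10 coordinates, was at 4.83 FPKM in WT and 25.8 FPKM in mat nrpd1+/- in the mat table. Its values in the null table were 476 FPKM in WT and 50.9 FPKM in nrpd1-/-, a log2 ratio of -3.20 and the lowest of the 44.

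The same gene was thus lowest in WT of one table and highest in WT of the other, with both mutants between. This order recurred in the complex I genes. The nad9 values were 0.85 FPKM in WT and 9.50 FPKM in mat nrpd1+/-, and 61.0 FPKM in WT and 22.7 FPKM in nrpd1-/-. The nad5 exons at ATMG00060 were at 0.56 FPKM in WT and 3.54 FPKM in mat nrpd1+/-, and at 141 FPKM in WT and 43.6 FPKM in nrpd1-/-. The nad4L gene, which had the highest complex I value in WT of the mat table, was at 5.58 FPKM there and at 13.6 FPKM in mat nrpd1+/-. Its null table values were 255 FPKM in WT and 110 FPKM in nrpd1-/-. The lowest values among the complex I genes called were those of nad7, at 0.02 and 0.08 FPKM in the mat table, too low for the filter, and at 2.62 FPKM in WT and 0.61 FPKM in nrpd1-/-. Only 3.97% of the 40-base words of nad7 were unique.

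Complex IV, cytochrome c oxidase, passes electrons to oxygen. Its catalytic subunit gene cox1 (ATMG01360, bases 349830 to 351413) had the highest level of any mitochondrial protein gene of known function in WT of the null table. It was at 5.20 FPKM in WT and 20.2 FPKM in mat nrpd1+/-, a log2 ratio of 1.77. Against nrpd1-/- it was at 1686 FPKM in WT and 632 FPKM in nrpd1-/-, a log2 ratio of -1.41. Both values of the null table thus lay far above both values of the mat table. The cox2 gene was nearly unmeasured in WT of the mat table, at 0.08 FPKM, and was at 2.04 FPKM in mat nrpd1+/-, 95.4 FPKM in WT of the null table and 27.1 FPKM in nrpd1-/-. The third complex IV gene, cox3, whose words all occur in the nuclear genome, did not exceed 0.06 FPKM. In complex V, the ATP synthase, atp4 was the 1 gene of 6 that was measured, at 1.88 FPKM in WT and 11.5 FPKM in mat nrpd1+/-, and at 93.3 FPKM in WT and 36.6 FPKM in nrpd1-/-. Complex III is represented in this genome by cob alone, which was listed at 0.

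The ccm genes encode the machinery that matures c-type cytochromes, the electron carriers of complex III and of the soluble cytochrome c. All 5 were low or listed at 0. The ccmB gene, an ABC transporter subunit with no nuclear copy, was at 0.15 FPKM in WT and 1.35 FPKM in mat nrpd1+/-, and at 8.66 FPKM in WT and 3.80 FPKM in nrpd1-/-. The ccmFN1 gene was at 0.09 FPKM in WT and 1.96 FPKM in mat nrpd1+/-, and at 5.47 FPKM in WT and 2.30 FPKM in nrpd1-/-. The ccmFN2 gene was listed at 0 in WT of the mat table and at 0.06 FPKM in mat nrpd1+/-, and was at 2.37 FPKM in WT and 0.32 FPKM in nrpd1-/-. Both genes are parts of the split ccmFN, a subunit of the heme lyase. The ccmC and ccmFC genes, whose words all occur in the nuclear genome, were listed at 0 in all 4 columns. In the null table the log2 ratios of ccmB, ccmFN1 and ccmFN2 were -1.01, -0.97 and -1.35. So 2 of the 3 were called lower, where 7.47% of all genes were. For ccmFN2 nrpd1-/- was below 1 FPKM, so that it passed only through WT and had to be lower.

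With the pseudocount of 1, the 2 ribosomal protein genes that passed the filter had the largest log2 ratios of the protein genes in the mat table. Without a pseudocount ATMG00080 was 17.4-fold higher in mat nrpd1+/-, below cox2 at 24.8-fold and ccmFN1 at 21.6-fold. The locus of rps3 and rpl16 (bases 25076 to 28733) holds ATMG00080 and ATMG00090, with 92.5% unique words. ATMG00080 was at 1.87 FPKM in WT and 32.5 FPKM in mat nrpd1+/-, a log2 ratio of 3.55. ATMG00090 was at 0.93 FPKM in WT and 38.6 FPKM in mat nrpd1+/-, a log2 ratio of 4.36. With WT below 1 FPKM, ATMG00090 passed only through the mutant value and had to be higher. Against nrpd1-/- ATMG00080 was at 89.2 FPKM in WT and 35.2 FPKM in nrpd1-/-, and ATMG00090 was at 164 FPKM in WT and 79.6 FPKM in nrpd1-/-. The mat nrpd1+/- value of ATMG00080 was therefore close to its nrpd1-/- value, while the WT values of the 2 tables lay at opposite ends. The rpl2 gene was listed at 0 in WT of the mat table and at 0.45 FPKM in mat nrpd1+/-, and was at 5.95 FPKM in WT and 3.14 FPKM in nrpd1-/-. The other 4 ribosomal protein genes were listed at 0.

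The ribosomal RNAs gave some of the highest values. The large subunit RNA rrn26 was at 612 FPKM in WT of the mat table and 9801 FPKM in WT of the null table, and Cuffdiff gave no estimate for either mutant because the locus held too many fragments, so it has no ratio. The small subunit RNA rrn18 was at 6.99 FPKM in WT and 130 FPKM in mat nrpd1+/-, a log2 ratio of 4.03. The null table had rrn18 at 1622 FPKM in WT and 235 FPKM in nrpd1-/-, a log2 ratio of -2.78. The 5S RNA rrn5, a gene of 118 bases that lies 170 bases from rrn18, behaved differently in the mat table, with 210 FPKM in WT and 284 FPKM in mat nrpd1+/-, a log2 ratio of 0.43. In the null table rrn5 was at 1365 FPKM in WT and 165 FPKM in nrpd1-/-, a log2 ratio of -3.04, and its nrpd1-/- value was the lowest of its 4.

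Of the 73 open reading frames, 43 were listed at 0 in all 4 columns. The filter left 8 in the mat table, of which 7 were past 2-fold higher in mat nrpd1+/-, where 10.7% of all genes were called higher. It left 22 in the null table, all 22 below WT and 11 of them past 2-fold lower, where 7.47% of all genes were called lower. Some passed only through the higher column and had to differ that way. In the mat table these included orf240a, orf106f and orf107h, with WT below 1 FPKM. In the null table they were those with nrpd1-/- below 1 FPKM. The open reading frame with the highest level was orf107a, at 744 FPKM in WT and 3617 FPKM in mat nrpd1+/-, and at 9673 FPKM in WT and 1946 FPKM in nrpd1-/-, a log2 ratio of -2.31 and the lowest of its class. In the RefSeq annotation rrn26 runs over 185 of the 324 bases of orf107a, so its value cannot be told apart from ribosomal RNA. The next highest, orf149, was at 23.3 FPKM in WT and 137 FPKM in mat nrpd1+/-, and at 889 FPKM in WT and 698 FPKM in nrpd1-/-. It lies 872 bases from nad4L, which itself lies 266 bases from atp4, yet its log2 ratio in the null table, -0.35, was smaller in size than -1.21 at nad4L and -1.33 at atp4.

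A further open reading frame beside a respiratory gene was orf106f, 113 bases from the nad1 exons of ATMG01120. It was at 0.72 FPKM in WT and 8.98 FPKM in mat nrpd1+/-, the highest log2 ratio of its class in the mat table (2.54), and at 263 FPKM in WT and 88.4 FPKM in nrpd1-/-. The smallest difference in the mat table was at orf113, with 1.06 FPKM in WT and 1.23 FPKM in mat nrpd1+/-, although it was at 30.2 FPKM in WT and 8.87 FPKM in nrpd1-/-. The smallest difference in the null table was at orf110b, with 4.07 FPKM in WT and 3.69 FPKM in nrpd1-/-. It was listed at 0 in WT of the mat table and at 1.19 FPKM in mat nrpd1+/-. The orf240a values were 0.75 FPKM in WT and 2.89 FPKM in mat nrpd1+/-, and 10.3 FPKM in WT and 2.99 FPKM in nrpd1-/-, so the mutant values of both tables were close. For orf107h, which shares its locus with nad2, the values were 0.26 FPKM in WT and 2.19 FPKM in mat nrpd1+/-, and 2.72 FPKM in WT and 1.89 FPKM in nrpd1-/-.

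Of the remaining classes, 20 of the 22 of the transfer RNA class were listed at 0 in all 4 columns. Transfer RNA genes are very short, and FPKM of such genes rests on few fragments. The trnF pseudogene ATMG09740 (72 bases) was listed at 21.2 FPKM in mat nrpd1+/- and at 0 in the other 3 columns. The trnH gene (74 bases) was listed at 15.2 FPKM in mat nrpd1+/- and 6.61 FPKM in nrpd1-/- and at 0 in both WT columns, and in the null table Cuffdiff had marked it as having too few fragments to test. At the locus shared by nad1 exons and matR, the intron maturase gene, ATMG00516 was at 0.27 FPKM in WT and 4.17 FPKM in mat nrpd1+/-, and at 8.87 FPKM in WT and 3.65 FPKM in nrpd1-/-. Its partner ATMG00520 was listed at 0 in WT and at 0.10 FPKM in mat nrpd1+/-, and was at 5.91 FPKM in WT and 2.29 FPKM in nrpd1-/-. The mttB gene did not exceed 0.36 FPKM.

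**Figure D3:**
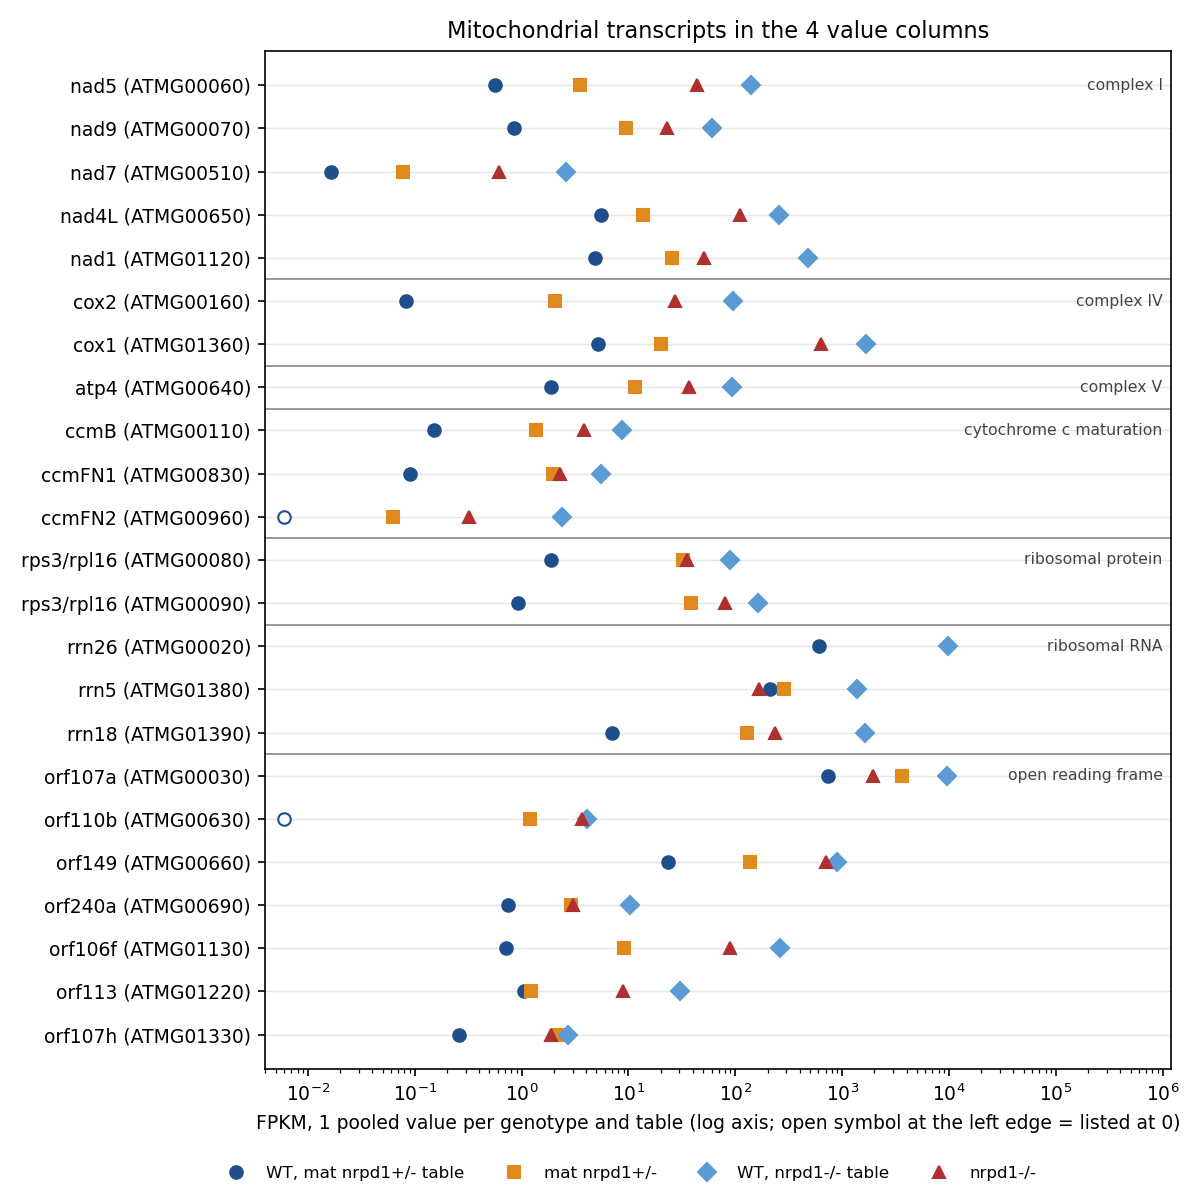
FPKM (x axis, log scale) of the named mitochondrial genes with a value, by class (y axis), in WT and mat nrpd1+/- of the mat table and WT and nrpd1-/- of the null table. Each symbol is 1 pooled value, open symbols were listed at 0, and rrn26 has no mutant value. In most genes WT of the mat table is lowest and WT of the null table is highest, as for cox1 at 5.20 and 1686 FPKM.

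The WT values of the 2 tables differed by more, on the log2 scale, than either mutant did from its own WT at 20 of the 21 members that passed in all 3 comparisons, rrn5 being the exception. Both columns are labelled WT, but the libraries behind each are not named in the sources used here. The columns differed by more than a scale factor, unlike WT of the mat table and of the third table, where 0 of 13766 genes were past 2-fold. The same values were thus not behind both columns, and how the listed WT libraries entered each is not known. The tables were normalized separately, so the ratio was centred on its median over nuclear genes (-0.15 before centring). Of the 41 members that passed, all 41 were past 2-fold higher in WT of the null table, where 12.6% of all 13933 genes that passed were called higher and 18.4% lower. WT of the mat table was below 1 FPKM for 29 of the 41, so that these passed only through WT of the null table and had to be higher there. The median log2 ratios of 3.38 over the 41 and of 5.43 over the 9 respiratory genes include them. The other 12 had at least 1 FPKM in WT of the mat table, and all 12 were past 2-fold higher, with log2 ratios from 2.84 at rrn5 to 8.24 at cox1 and a median of 5.15. Among the respiratory genes these were nad1, nad4L, cox1 and atp4, with a median of 5.96. The size was not uniform. Among the measured genes with at least 1 FPKM in both WT columns, the WT value of the null table was 6.50 times that of the mat table at rrn5, 16.0 times at rrn26, 98.5 times at nad1 and 324 times at cox1. The genes therefore also differed in their order of abundance, and cox1 ranked behind rrn5, rrn18, orf149 and nad4L in WT of the mat table but ahead of these in WT of the null table.

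**Figure D4:**
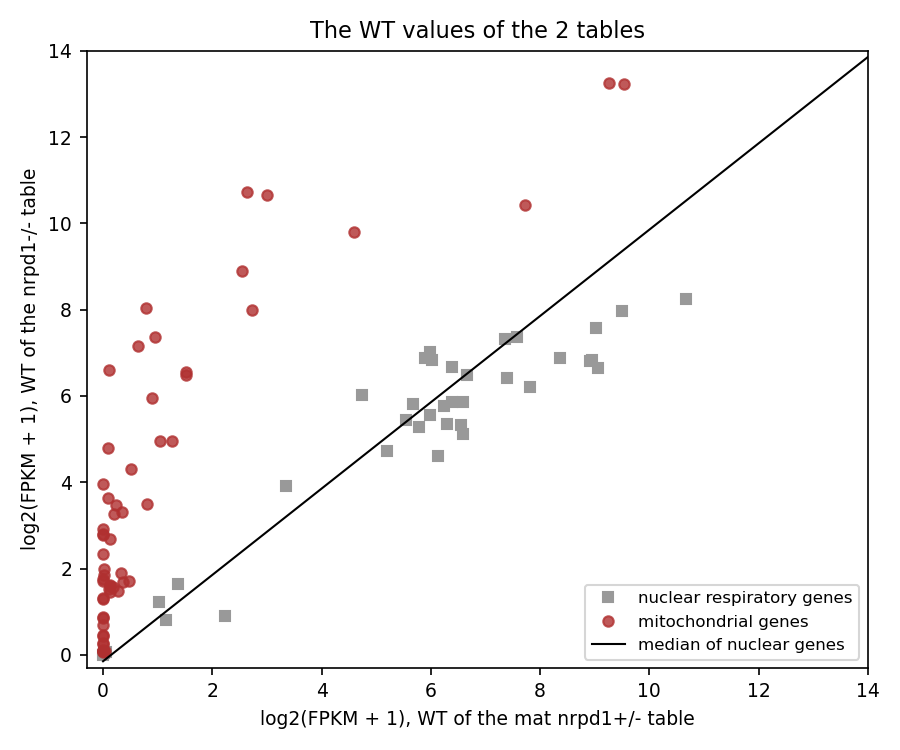
Log2(FPKM + 1) in WT of the mat table (x axis) and in WT of the null table (y axis) for the mitochondrial genes with a value in either (red circles) and for 37 nuclear genes of respiration and mitochondrial RNA (grey squares). The black line is the median of nuclear genes. All mitochondrial genes that passed the filter lie above the line, and many nuclear genes lie on or below it.

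With the null table brought to the scale of the mat table by the nuclear median, 36 members had a value above 0 in all 4 columns. WT of the mat table was the lowest of the 4 for 34 of these, WT of the null table was the highest for all 36, and the order WT of the mat table, mat nrpd1+/-, nrpd1-/-, WT of the null table held for 29. Both mutant values of these 29 thus lay between the WT values. No level filter was applied to the 36, and only 12 of all members had at least 1 FPKM in WT of the mat table. The lowest values were near the floor, as for orf251 at 0.02 FPKM in WT of the mat table and 0.06 FPKM in WT of the null table. Shares of the summed FPKM of all genes were computed without the 21 genes that had a failed estimate in either table, rrn26 among them. The members then held 0.0842% in WT of the mat table, 0.493% in mat nrpd1+/-, 1.89% in WT of the null table and 0.555% in nrpd1-/-. Without orf107a as well, these shares were 0.0224%, 0.0882%, 0.819% and 0.302%. The direction of each mutant comparison cannot be told apart from the level of the WT column it was set against. The WT column of the third table, made for pat nrpd1+/-, was 0.881 times that of the mat table at the median gene, with centred log2 ratios from -0.03 to 0.05 over the 11 members that passed and 0 of 13766 genes past 2-fold in either direction (0% called). It was therefore not counted as a further WT measurement, and the mutant values of that table were not used here.

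The chloroplast genome was looked at for comparison. Of its 133 genes, 96 passed in the mat table with a median log2 ratio of 2.65, 85 of them past 2-fold higher in mat nrpd1+/- and 4 lower. Of all genes 10.7% were called higher there and 14.1% lower. Against nrpd1-/- 93 passed with a median of -0.67, 33 past 2-fold lower in the mutant and 16 higher, where 7.47% of all genes were called lower and 8.52% higher. Between the WT columns 97 passed with a centred median of 4.03. The median of 3.38 over the 41 mitochondrial genes includes the 29 that had to be higher, and that of the other 12 was 5.15. Such a split is not given here for the chloroplast genes in any comparison, so the medians of the genomes are not ranked. Of the 97, 75 were past 2-fold higher in WT of the null table and 19 lower, where 12.6% of all genes were called higher and 18.4% lower. Chloroplast genes held 4.05% of the same sum in WT of the mat table, 12.8% in mat nrpd1+/-, 27.3% in WT of the null table and 7.23% in nrpd1-/-. The shares of both organelle genomes were thus higher in mat nrpd1+/- than in its WT and lower in nrpd1-/- than in its WT. Directions varied from gene to gene in the chloroplast. Of the mitochondrial genes that passed, only trnH lay above WT in nrpd1-/-. It was listed at 0 in WT and so had to be higher, and 9 others with nrpd1-/- under 1 FPKM had to be lower. No difference between the genomes was tested.

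Nuclear genes for the same complexes were read beside the mitochondrial genes. From a list of 37 nuclear genes for respiratory subunits, cytochrome c, alternative oxidase and mitochondrial RNA synthesis and decay, 27 passed in the mat table outside the introgressed regions. Their median log2 ratio was -0.59, against -0.07 over all genes. Of the 27, 7 were past 2-fold lower in mat nrpd1+/- and 0 higher, where 14.1% of all genes were called lower and 10.7% higher. Against nrpd1-/- 26 passed with a median of -0.07, and 0 were past 2-fold in either direction, where 7.47% of all genes were called lower and 8.52% higher. The difference between these genes and the mitochondrial genes was not tested. The complex IV gene AT4G37830 was at 1639 FPKM in WT and 660 FPKM in mat nrpd1+/-, and at 302 FPKM in WT and 461 FPKM in nrpd1-/-. That is lower than WT in the mat table, where cox1 of the same complex was higher, and higher than WT in the null table, where cox1 was lower. The cytochrome c gene CYTC-1 was at 482 FPKM in WT and 169 FPKM in mat nrpd1+/-. AT5G15700, which encodes a phage-type RNA polymerase, was at 1.22 FPKM in WT and 1.49 FPKM in mat nrpd1+/-, and at 0.74 FPKM in WT and 1.52 FPKM in nrpd1-/-. AT5G14580, a polyribonucleotide nucleotidyltransferase of the kind that degrades polyadenylated organelle RNA, was at 1.60 and 1.89 FPKM in the mat table and at 2.13 and 1.87 FPKM in the null table. Between the WT columns, 10 of 26 nuclear genes of the list were past 2-fold lower in WT of the null table and 1 was higher, where 18.4% of all genes were called lower and 12.6% higher.

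Markers of the seed tissues were also read, as levels only, since 5 of the 8 endosperm markers, 4 of the 6 seed coat markers and 1 of the 3 embryo markers lie in the introgressed regions. The endosperm markers summed to 128 FPKM in WT and 177 FPKM in mat nrpd1+/-, and to 181 FPKM in WT and 155 FPKM in nrpd1-/-. Of the 8, RGE1 and ALE1 had at least 31.6 FPKM in every column, AGL62, FWA and MEA, which are known from early endosperm, did not exceed 0.50 FPKM, and PHE1 and FIS2 did not exceed 2.35 FPKM. Members of the list went opposite ways. YUC10, an auxin synthesis gene, was at 6.17 FPKM in WT and 66.2 FPKM in mat nrpd1+/-, and at 12.9 FPKM in WT and 79.3 FPKM in nrpd1-/-. ALE1, which encodes a protease, was at 61.9 FPKM in WT and 41.2 FPKM in mat nrpd1+/-, and at 98.1 FPKM in WT and 31.6 FPKM in nrpd1-/-.

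The 6 seed coat markers summed to 161 FPKM in WT and 199 FPKM in mat nrpd1+/- and to 237 FPKM in WT and 194 FPKM in nrpd1-/-, with TT12 at or below 0.16 FPKM throughout. The sums of both lists were thus above WT in mat nrpd1+/-, below WT in nrpd1-/- and highest in WT of the null table, by far smaller factors than the mitochondrial values. Single genes did not all follow the sums, and 1 of the 8 endosperm markers and 3 of the 6 seed coat markers were above WT in mat nrpd1+/- and below WT in nrpd1-/-. In the endosperm list, YUC10 rose by more FPKM in mat nrpd1+/- than the sum of the list did. BAN, an enzyme of tannin synthesis, was at 27.9 FPKM in WT and 40.2 FPKM in mat nrpd1+/-, and at 8.84 FPKM in WT and 30.8 FPKM in nrpd1-/-. TTG2 was above WT in both mutants, at 1.80 and 12.4 FPKM in the mat table and at 2.09 and 11.8 FPKM in the null table, and MUM4 was below WT in both, at 65.4 and 58.9 FPKM and at 93.9 and 47.7 FPKM. The 3 embryo markers summed to 512 and 96.0 FPKM in the mat table and to 207 and 80.1 FPKM in the null table, nearly all of it from LEC1, and all 3 were below WT in both mutants. STM reached at most 1.76 FPKM and WOX2 at most 1.23 FPKM. The sum therefore describes LEC1 and was not read as an amount of embryo. No embryo marker and no seed coat marker was listed at 0. The paper reports a tissue enrichment test of its mRNA libraries in which it saw no sign of seed coat carried over. The part of these tissues in the mitochondrial values was not tested here. In such samples fewer cells or organelles of a kind and less RNA in each cannot be told apart.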

How the data were processed

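Polyadenylated RNA of hand-dissected endosperm was sequenced from 8 libraries. The authors used Trim Galore for trimming, TopHat 2.1.1 for alignment to TAIR10 and Cuffdiff for the values, given as version 2.1.1 in the methods and as 2.2.1 in the submitters' processing notes. The deposited FPKM values pool the libraries of a genotype and are scaled within each of 3 tables. Their fold changes, test statistics and p-values hold the authors' own comparisons and were not used. A deposited list of introgressed Col-0 regions was used to leave 6867 genes out of the counts over all genes. Its coordinates were used as given. 1 value column, the mutant column of the pat nrpd1+/- table, belonged to no sample given and was not used. Values of 0 that Cuffdiff marked as failed estimates were treated as missing.

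Ratios used a pseudocount of 1 FPKM and a mean of at least 1 FPKM. Names came from RefSeq TAIR10.1, whose mitochondrial sequence is another build than that of the files, so gene positions are those of the files (TAIR10, counted from 1), and positions of printed sequences are those of TAIR10.1. Uniqueness was counted in exact words of 40 bases on both strands. Genes were named by a rule: in each class the gene with the highest WT FPKM in the mat table, all genes past 2-fold where these were at most 10, otherwise the 3 highest and 3 lowest ratios, all ccm and rrn genes, and NRPD1. AT4G37830, CYTC-1, AT5G15700, AT5G14580, the markers given singly and genes named as listed at 0 or without a copy were chosen after their values were seen. Members and lists were chosen with earlier results of these data known. Alternatives changed the pseudocount, filter, centring, fold, and the genes kept. Python 3.11.15, numpy 2.4.6, pandas 2.3.3 and matplotlib 3.10.9 were used, and the code was tested on simulated data.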

Additional observations from a re-analysis of the deposited data

Results flagged for a closer look

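The mitochondrial genes moved in opposite directions from WT in the 2 mutants. Over the 22 genes that passed the filter in both comparisons, the median log2 ratio was 2.07 in mat nrpd1+/- against WT and -1.43 in nrpd1-/- against WT, and 21 of the 22 were above WT in the former and below WT in the latter. All 11 genes that passed the filter in the mat table with at least 1 FPKM in its WT column were among the 21. The rest of the 22 passed there only through the mutant value and had to be above WT. The count of 21 and the median of 2.07 include such genes. Each genotype has 1 pooled value per table, so this difference between the comparisons was not tested. At 20 of the 21 genes that also passed between the WT columns, those columns differed by more than either mutant did from its WT, and what part the WT columns have in the opposite directions was not tested.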

How the results depend on the processing

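The pooled columns allowed no replicate to be left out. No paired analysis was possible because the value columns pool the libraries of a genotype and carry no replicate numbers. The direction of the medians over all mitochondrial genes held under every alternative run for both mutants and for WT against WT of the null table. With a pseudocount of 10 the medians were 0.82 in mat nrpd1+/-, -0.47 in nrpd1-/- and 1.16 between the WT columns, and 8 genes were past 2-fold higher in mat nrpd1+/-, 13 lower and 0 higher in nrpd1-/-, and 22 higher between the WT columns. With a pseudocount of 0.1 the WT median was 5.34. With no filter the medians were 0.49 in mat nrpd1+/- and 2.61 between the WT columns, and the complex V median in nrpd1-/- was 0.0089, since 2 further genes, atp1 and atp6, entered at under 0.1 FPKM. A mean of at least 10 FPKM left 8 genes past 2-fold higher in mat nrpd1+/-, 17 lower and 0 higher in nrpd1-/-, and 18 between the WT columns with a median of 5.47. At 4-fold, 13 genes were higher in mat nrpd1+/-, 4 were lower in nrpd1-/-, and 0 nuclear genes of the list were past it in mat nrpd1+/-. The share of all genes called under each alternative is not given here. The counts under the alternatives are therefore not read against a background. trnH, the gene higher in nrpd1-/-, was not counted (0 genes) when genes under 300 bases or not marked OK by Cuffdiff were left out. With a pseudocount of 10 the chloroplast median in mat nrpd1+/- was 1.97. The chloroplast settings and the introgressed regions kept in were chosen after seeing the data. Of the values for single genes and classes, 63 moved by more than 1.5-fold or its log2 equivalent, mostly low genes under another pseudocount. FPKM without read counts gives no counting error, so values under 1 FPKM carry an unknown one.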
